A study of Saccharomyces cerevisiae SK1 with 8 samples.

Results

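The small subunit processome and the factors that finish the 40S ribosomal subunit were followed in growing budding yeast through 59 of the 6663 genes counted. The genes were taken by name and role, with no measured value in the rule: the UTP proteins, the proteins of box C/D small nucleolar ribonucleoproteins (snoRNPs), the Mpp10 complex, the helicases of the 90S particle and the late 40S factors. These genes were chosen with earlier results of these data known. They lie on 14 chromosomes, their coordinates below are those of the files, whose genome build is not named, and all 59 had enough reads to be tested, the lowest count of any of them in a library being 1740.

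In the yeast nucleolus a long precursor RNA holds the 18S rRNA of the small subunit between spacers that are cut away. The processome forms on this precursor while it is being made. The UTP-A complex binds the 5′ external spacer first, UTP-B and the U3 snoRNP follow, and the remaining factors fold and cut the RNA until a pre-40S particle leaves for the cytoplasm, where the last cut is made. The genes of this pathway are known for moving together with growth rate, being high in fast growth and low in stress or starvation.

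The study asks what a truncated form of Pus1, an enzyme that makes pseudouridine in RNA, does when it is switched on with and without the native enzyme. The samples are polyadenylated RNA of 8 diploid SK1 cultures, 2 biological replicates in each of 4 groups, taken 3 h after dilution into rich YEPD medium at 30 °C. At dilution the inducer anhydrotetracycline (aTC) or DMSO alone was added. The controls, like every other strain, carried at his3 the truncated Pus1 with a 3V5 tag under the pTetO7.1 promoter (altPus1). They also carried TetR-Tup1 under pRNR2 and TetR under pTetO7.1 at ura3. The deletion strain had pus1::KanMX on this background and wild type kept PUS1. Each strain was grown with aTC and with DMSO. All group values below have n = 2.

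The total count was 51331492 to 61960514 per library. PUS1 counts, which include reads of the construct, were 770.8 and 904.6 CPM (TMM-scaled counts relative to library size) in the deletion with aTC and 0.03823 and 0.06544 CPM in the deletion with DMSO. They were 1124 and 1078 CPM in wild type with aTC and 221 and 215.8 CPM in wild type with DMSO, so all 8 libraries followed their labels. The 14 haploid-specific genes fixed as a check of the diploid label summed to 62.68 to 74.03 CPM per library. None was at 0 and 4 had under 1 CPM on average in each group, with STE6 the highest at 20.8 to 23.92 CPM. In bulk RNA, fewer cells of a type and less RNA per cell cannot be told apart.

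The promoters of these genes share a pair of short sequences that the choice of genes did not use. PAC (core GATGAG, searched on both strands) and RRPE (core AAAATTTT, its own reverse complement) are known elements of yeast ribosome assembly gene promoters. In the window from 250 bases before the start codon to 50 after it, PAC was found in 53 of the 59 genes (89.8%) against 1224 of all 6007 promoters (20.4%). RRPE was found in 48 of 59 (81.4%) against 543 (9.04%), and both were found in 45 (76.3%) against 263 (4.38%). The cores do not overlap each other in sequence, but copies of PAC can overlap, as in NOC4. EMG1, UTP22 and UTP30 had neither core in this window.

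Stretches of 5 promoters are shown because they span the range of responses described below, from NOP14, LCP5 and ROK1, which fell, through NOP1, the gene with the highest level, to NOC4, which was not called in any comparison. They come from the RefSeq S288C assembly R64, which is not the SK1 genome of the samples. Capitals mark PAC in either orientation and RRPE, and each is written 5′ to 3′ toward the gene.
NOP14 (R64 chrIV:190663-190752, minus strand): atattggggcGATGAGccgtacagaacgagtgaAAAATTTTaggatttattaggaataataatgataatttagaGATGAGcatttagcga
LCP5 (R64 chrV:414295-414422, plus strand): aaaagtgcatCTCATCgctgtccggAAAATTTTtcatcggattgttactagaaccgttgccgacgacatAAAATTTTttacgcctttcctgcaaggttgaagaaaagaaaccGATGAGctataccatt
ROK1 (R64 chrVII:182263-182300, plus strand): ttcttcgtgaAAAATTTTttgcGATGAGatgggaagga
NOP1 (R64 chrIV:427129-427175, plus strand): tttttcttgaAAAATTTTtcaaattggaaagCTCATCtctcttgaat
NOC4 (R64 chrXVI:821475-821552, minus strand): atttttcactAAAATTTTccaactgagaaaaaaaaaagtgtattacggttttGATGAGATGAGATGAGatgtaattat

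All 5 stretches hold both cores, in the promoter of NOC4 as in those of the genes that fell. The 45 genes with both cores had a median log2 fold change of -0.33 in the deletion against wild type with aTC, and 26 of them were called lower. The 14 others had a median of -0.17 with 5 called. Over all tested genes the median was 0.005 and 8.13% were called lower. The calls depended on single libraries, as described below. The difference between the genes with and without both cores was not tested.

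Per kilobase of counted exon, the 59 genes had a median level of 105.8 CPM, against 39.78 CPM for all tested genes. NOP1, the fibrillarin homologue that methylates ribose in rRNA, was highest at 1279 CPM per kilobase. SNU13 and NSR1 followed at 624.3 and 578.3, and FAL1, a DEAD-box helicase, was lowest at 33.52. Together the 59 genes took 1.34% and 1.345% of all counts in the deletion with aTC, 1.419% and 1.443% in the same strain with DMSO. Wild type had 1.593% and 1.414% with aTC and 1.561% and 1.441% with DMSO. The deletion with aTC was lowest in both its libraries, while the wild-type groups overlapped the deletion with DMSO.

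Most of the genes ran in the same order over the groups. The deletion with aTC had the lowest group mean in 48 of the 59, against 32.3% of all 5932 tested genes. In 46 of the 59 (78%) the deletion with aTC lay below the deletion with DMSO, and that below both wild-type groups, an order found in 18.9% of all tested genes. A wild-type group had the highest mean in 56 genes, DMSO in 34 of them and aTC in 22. The exceptions at the top were 1 gene highest in the deletion with aTC and 2 highest in the deletion with DMSO.

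The replicates of wild type with aTC stood apart for these genes. Replicate 1 was above replicate 2 in 56 of 59, by a median of 0.23 on the log2 scale, while the median over all tested genes was 0.001. In wild type with DMSO replicate 1 was higher in 53 of 59, by a median of 0.11. In the deletion the medians of the same difference were -0.008 with aTC and -0.003 with DMSO. For the 59 genes as a set, the counts of called genes that rest on wild type with aTC are therefore given below with and without its replicates.

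**Figure D1:**
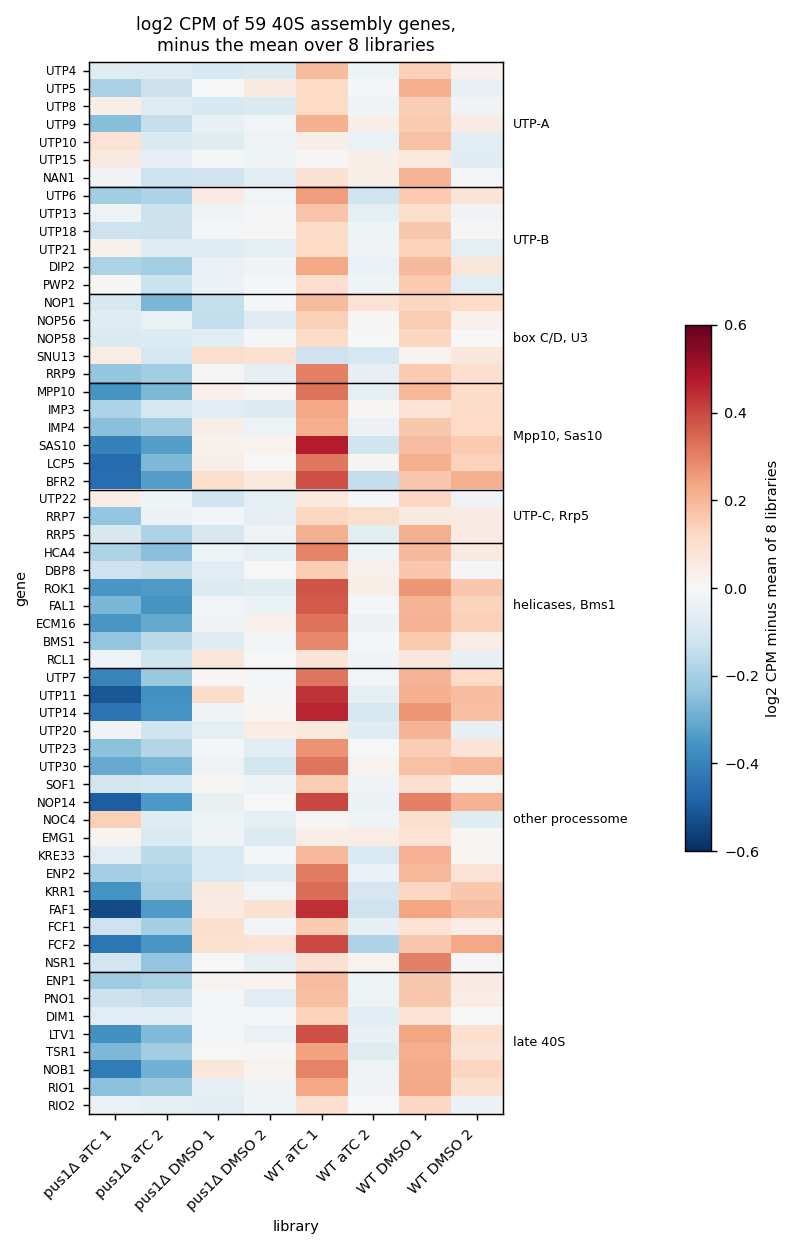
log2 CPM of each of the 59 genes (vertical axis, grouped by role) in each of the 8 libraries (horizontal axis), minus the gene's mean over the 8 libraries, on a colour scale from blue (lower) to red (higher). The 2 columns of the deletion with aTC are mostly blue (library medians -0.189 and -0.183), and wild type with aTC replicate 1 (0.212) is redder than replicate 2 (-0.029).

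In the map of log2 CPM by library, the deletion with aTC is deep blue in lines such as UTP11, UTP14, NOP14, FAF1, LCP5, NOB1 and ROK1. The UTP10, UTP15 and NOC4 lines are pale. These are levels relative to each gene's own mean, so colours do not compare levels between genes.

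With aTC in both strains, the deletion had lower RNA than wild type for many genes of the pathway. In the edgeR quasi-likelihood test 31 of the 59 genes fell and 0 rose at an adjusted p under 0.05, where 8.13% of all tested genes were called lower and 5.5% higher. The median log2 fold change of the 59 was -0.28, against 0.01 over all tested genes, and 56 of 59 were below 0 (49% of all tested genes). In 48 of 59 both deletion libraries lay below both wild-type libraries, against 27.9% of all tested genes. DESeq2 called 37 lower, against 11.9% of its tested genes. The called falls ran from 1.19-fold (RRP7) to 1.56-fold (UTP11). By name the 31 were UTP9, DIP2, NOP1, RRP9, MPP10, IMP3, IMP4, SAS10, LCP5, BFR2, RRP7, HCA4, ROK1, FAL1, ECM16, BMS1, UTP7, UTP11, UTP14, UTP23, UTP30, NOP14, ENP2, KRR1, FAF1, FCF2, ENP1, LTV1, TSR1, NOB1 and RIO1.

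The count depended on single libraries, while the median stayed below 0 in every fit. The share called lower over all tested genes moved with it. Without replicate 1 of the deletion with aTC 0 were called (0.0336% of all tested genes), and without replicate 2 it was 16 (9.01%). It was 20 (3.74%) and 12 (2.48%) without replicate 1 or 2 of the deletion with DMSO, which enter through the shared spread and scaling. Leaving out replicate 1 of wild type with aTC left 7 called (0.872% of all tested genes) with a median of -0.16. Leaving out replicate 2 gave 43 (13.1%) with a median of -0.37. No gene was called in all 8 of these fits, and LCP5, ROK1, ECM16, UTP11, UTP14, NOP14 and NOB1 were called in 7.

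Averaged over aTC and DMSO, the deletion was lower than wild type for 38 of the 59 genes and higher for 0, where 11.2% of all tested genes were called lower and 10% higher. The median log2 fold change was -0.21 against 0.003 for all tested genes, and SNU13 alone was above 0 (48.9% of all tested genes were below). All 4 deletion libraries lay below all 4 wild-type libraries in 14 of 59, against 9.17% of all tested genes. DESeq2 called 41 lower, against 15.1%. The 31 genes called with aTC were all among these 38. The other 7 were UTP4, NAN1, NOP56, RRP5, DBP8, NSR1 and PNO1. The averaged comparison holds the aTC libraries, so it is not independent of the comparison with aTC. It fell to 8 genes without replicate 1 of the deletion with aTC (4.8% of all tested genes called lower), to 7 and 2 without replicate 1 or 2 of the deletion with DMSO (2.35% and 0.638%), and to 23 without replicate 1 of wild type with DMSO (7.9%). Without replicate 1 of wild type with aTC it was 29 with a median of -0.16 (7.48%), and without replicate 2 it was 48 with a median of -0.27 (15.1%). ROK1 was called in all 8 of these fits.

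**Figure D2:**
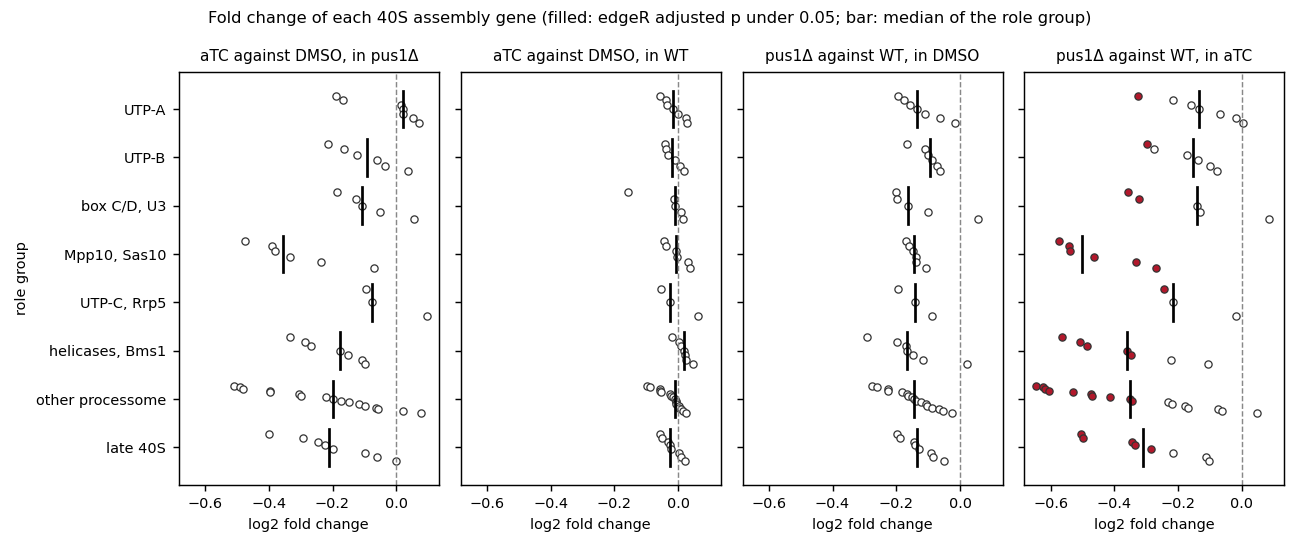
log2 fold change (horizontal axis) of each gene by role group (vertical axis) in the 4 comparisons of 2 groups; filled points passed the edgeR test and bars mark the median of the role group. Filled points appear only in the deletion against wild type with aTC, where the 6 genes of the Mpp10 and Sas10 group are all filled around a median of -0.5, and the UTP-A group has 1 of 7 filled around -0.14.

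In the plot of fold changes by role the medians of the deletion against wild type with aTC ran from -0.14 in UTP-A to -0.5 in the Mpp10 and Sas10 group. Differences between role groups were described only, with no test. In the text by role below, a fall with aTC means a lower level in the deletion than in wild type when both had aTC. It is not a response to aTC against DMSO, which is given further below.

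The UTP-A complex, which is first to bind the pre-rRNA and is also needed for rDNA transcription in yeast, had a median of -0.14 with aTC, close to that of the box C/D group. With aTC 1 of its 7 genes, UTP9, fell in the deletion. UTP9 (YHR196W, chromosome 8, 479036 to 480763, plus strand) had 220.2 and 238.4 CPM in the deletion with aTC, 254.6 and 259.8 in the deletion with DMSO, 304.8 and 269.9 in wild type with aTC, and 292.8 and 271.4 in wild type with DMSO. Both deletion groups lay below both wild-type groups without overlap. With aTC UTP9 was 1.25-fold lower in the deletion (log2 fold change -0.33 ± 0.070 SE, edgeR adjusted p = 0.0203). UTP10 (YJL109C, chromosome 10, 190451 to 195760, minus strand), the large HEAT-repeat scaffold of the complex, had 692.5 and 613.9 CPM in the deletion with aTC and 670.2 and 634.2 in wild type with aTC. Those groups overlapped, and its log2 fold change was 0.002 ± 0.082 (adjusted p = 0.99). UTP4 and NAN1, also subunits of the complex, joined UTP9 in the averaged comparison (log2 fold changes -0.17 and -0.17, adjusted p = 0.0401 and 0.0406). UTP5, UTP8 and UTP15 were called in neither.

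UTP-B, the complex that binds next to the U3 snoRNP, gave 1 called gene of 6. DIP2 (Utp12, YLR129W, chromosome 12, 380233 to 383064, plus strand), a WD-repeat subunit, had 274.7 and 271.8 CPM in the deletion with aTC, 304.7 and 308.2 in the deletion with DMSO, 367.4 and 305.1 in wild type with aTC, and 358 and 329.2 in wild type with DMSO. The deletion with aTC was the lowest group in both libraries, and replicate 2 of wild type with aTC lay within the range of the deletion with DMSO. With aTC the deletion was 1.23-fold lower (-0.30 ± 0.080, adjusted p = 0.0335). The other subunits, UTP6, UTP13, UTP18, UTP21 and PWP2, had log2 fold changes from -0.28 (UTP6) to -0.08 (UTP21) and were not called.

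Among the 5 box C/D proteins, NOP1 and RRP9, the U3-specific protein, fell with aTC, and NOP56 joined them in the averaged comparison. NOP1 (YDL014W, chromosome 4, 441033 to 442016, plus strand) had 1169 and 1035 CPM in the deletion with aTC, 1137 and 1240 in the deletion with DMSO, 1428 and 1328 in wild type with aTC, and 1369 and 1359 in wild type with DMSO. All 4 deletion libraries lay below all 4 wild-type libraries, and the 2 deletion groups overlapped. The fall was 1.25-fold with aTC (-0.32 ± 0.072, adjusted p = 0.0207) and 1.20-fold on average (-0.26 ± 0.051, adjusted p = 0.00935). RRP9 fell 1.28-fold with aTC (-0.36 ± 0.090, adjusted p = 0.028), with 27.8% of its counted exon shared with another listed gene. SNU13, which binds the kink-turn of box C/D RNAs and is also a U4 spliceosomal protein, ran the other way.

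SNU13 (YEL026W, chromosome 5, 100602 to 100982, plus strand) had 244.9 and 220.9 CPM in the deletion with aTC, 255.7 and 252.9 in the deletion with DMSO, 217.6 and 221.6 in wild type with aTC, and 240.7 and 248.7 in wild type with DMSO. Both deletion libraries with DMSO lay above every other library, and the groups with aTC overlapped. It was the highest of the 59 in the deletion against wild type both with aTC (0.09 ± 0.059, adjusted p = 0.342) and with DMSO. Neither value passed the test.

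The Mpp10 and Sas10 group, whose proteins brace the U3 and pre-rRNA duplexes inside the particle, had the lowest role-group median with aTC (-0.5). All 6 genes (MPP10, IMP3, IMP4, SAS10, LCP5 and BFR2) were called lower in the deletion than in wild type, with aTC and in the averaged comparison. LCP5 (YER127W, chromosome 5, 419649 to 420722, plus strand), a Sas10-domain protein, had 100.1 and 114.2 CPM in the deletion with aTC, 141.1 and 137.8 in the deletion with DMSO, 171.6 and 139.4 in wild type with aTC, and 160.5 and 151.5 in wild type with DMSO. The deletion with aTC was well below every other library, and replicate 2 of wild type with aTC lay between the libraries of the deletion with DMSO. LCP5 fell 1.45-fold with aTC (-0.54 ± 0.092, adjusted p = 0.015).

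MPP10 (YJR002W, chromosome 10, 418204 to 420084, plus strand), the scaffold of its complex, had 144.6 and 153.3 CPM in the deletion with aTC, 189 and 186 in the deletion with DMSO, 232.3 and 178.2 in wild type with aTC, and 212.6 and 200 in wild type with DMSO. Here too the deletion with aTC was lowest and replicate 2 of wild type with aTC fell below the deletion with DMSO. The fall with aTC was 1.38-fold (-0.46 ± 0.099, adjusted p = 0.0195). SAS10 fell 1.49-fold (-0.57 ± 0.14, adjusted p = 0.0239), and its wild-type replicates with aTC were far apart at 198 and 131.4 CPM. IMP3, the smallest fall of the group, was 1.21-fold lower (-0.27 ± 0.074, adjusted p = 0.0359).

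UTP-C and RRP5, a protein needed for both subunits, gave 1 called gene of 3 with aTC. RRP7 (YCL031C, chromosome 3, 84120 to 85013, minus strand), a UTP-C subunit, had 79.47 and 91.21 CPM in the deletion with aTC, 92.26 and 90.01 in the deletion with DMSO, 101.9 and 100.5 in wild type with aTC, and 97.04 and 96.73 in wild type with DMSO. All deletion libraries were below all wild-type libraries. It fell 1.19-fold with aTC (-0.25 ± 0.065, adjusted p = 0.0334). In the adenine fit described below its log2 fold change was -0.065 and it was not called (edgeR adjusted p = 0.417). UTP22 (YGR090W, chromosome 7, 659895 to 663608, plus strand), its partner, had 369.5 and 353.2 CPM in the deletion with aTC, 330.5 and 345.9 in the deletion with DMSO, 374.2 and 357.4 in wild type with aTC, and 391.5 and 354 in wild type with DMSO. Its groups with aTC overlapped and its log2 fold change was -0.02 ± 0.062 (adjusted p = 0.867).

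The helicases and the BMS1-RCL1 pair remodel the particle, and 5 of these 7 genes fell with aTC. ROK1 (YGL171W, chromosome 7, 187828 to 189522, plus strand), a DEAD-box helicase needed for the early pre-rRNA cuts, had 100.9 and 101.4 CPM in the deletion with aTC, 121.2 and 122.2 in the deletion with DMSO, 166.7 and 132.2 in wild type with aTC, and 154.6 and 143.6 in wild type with DMSO. The 3 levels did not overlap: the deletion with aTC was lowest, the deletion with DMSO came next, and all wild-type libraries were above both. ROK1 was 1.48-fold lower in the deletion with aTC (-0.56 ± 0.090, adjusted p = 0.015) and 1.35-fold lower on average (-0.43 ± 0.063, adjusted p = 0.00591).

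ECM16 (Dhr1, YMR128W, chromosome 13, 500487 to 504290, plus strand), the DEAH-box helicase that removes U3 from the pre-rRNA, had 128.5 and 132 CPM in the deletion with aTC, 161.3 and 167.1 in the deletion with DMSO, 205.2 and 159.6 in wild type with aTC, and 188.8 and 180.6 in wild type with DMSO. It fell 1.40-fold with aTC (-0.49 ± 0.094, adjusted p = 0.0162), and replicate 2 of wild type with aTC was just below the deletion with DMSO. FAL1 (YDR021W, chromosome 4, 500322 to 501521, plus strand), the gene of lowest level, had 32.82 and 31.05 CPM in the deletion with aTC, 39.29 and 38.59 in the deletion with DMSO, 51.28 and 39.43 in wild type with aTC, and 45.72 and 43.58 in wild type with DMSO. Both deletion groups lay below all wild-type libraries, by 1.42-fold with aTC (-0.51 ± 0.10, adjusted p = 0.0171). HCA4 (Dbp4), a DEAD-box helicase, and BMS1, a GTPase, fell 1.29-fold and 1.27-fold with aTC (adjusted p = 0.0283 and 0.0264). RCL1, the partner of BMS1, had a log2 fold change of -0.11 ± 0.064 and was not called, and the helicase DBP8 was called only in the averaged comparison (-0.17 ± 0.047, adjusted p = 0.0304).

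The 17 other processome factors held both the largest falls and some of the smallest. With aTC 10 fell, and 11 in the averaged comparison. UTP11 (YKL099C, chromosome 11, 262412 to 263164, minus strand) had 49.56 and 55.02 CPM in the deletion with aTC, 76.45 and 70.46 in the deletion with DMSO, 95.53 and 67.85 in wild type with aTC, and 82.12 and 80.3 in wild type with DMSO. The deletion with aTC was below every other library, and replicate 2 of wild type with aTC was below the deletion with DMSO. At 1.56-fold its fall with aTC was the largest of the 59 in this fit (-0.65 ± 0.13, adjusted p = 0.0162), while in the adenine fit described below it fell less (-0.33) than LCP5 and ROK1 (each -0.46), NOB1 (-0.43) and UTP7 (-0.42).

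NOP14 (YDL148C, chromosome 4, 202804 to 205235, minus strand), a scaffold of the particle that binds Noc4 and Emg1, had 115.4 and 128 CPM in the deletion with aTC, 157.8 and 162.9 in the deletion with DMSO, 214.7 and 158.4 in wild type with aTC, and 200.7 and 188 in wild type with DMSO. Both libraries of the deletion with aTC were lowest, and replicate 2 of wild type with aTC lay between the libraries of the deletion with DMSO. The fall of NOP14 with aTC was 1.53-fold (-0.62 ± 0.11, adjusted p = 0.0152). The partner gene NOC4 (YPR144C, chromosome 16, 818279 to 819937, minus strand) had 220.1 and 189.7 CPM in the deletion with aTC, 196 and 192.3 in the deletion with DMSO, 200.7 and 195.6 in wild type with aTC, and 213.8 and 189.6 in wild type with DMSO. Its groups overlapped, and its log2 fold change was 0.05 ± 0.077 (adjusted p = 0.698). EMG1, which methylates a pseudouridine of the 18S rRNA, was at -0.08 ± 0.057 (adjusted p = 0.376).

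UTP7 (YER082C, chromosome 5, 329832 to 331496, minus strand), a WD-repeat protein, had 117.5 and 133.1 CPM in the deletion with aTC, 155.7 and 154.1 in the deletion with DMSO, 194.1 and 153.4 in wild type with aTC, and 178.8 and 167.9 in wild type with DMSO. Again the deletion with aTC was lowest, and replicate 2 of wild type with aTC was far below replicate 1. UTP7 fell 1.39-fold with aTC (-0.47 ± 0.098, adjusted p = 0.0175). UTP30 (YKR060W, chromosome 11, 569071 to 569895, plus strand), related to a ribosomal protein of the large subunit, had 38.33 and 39.02 CPM in the deletion with aTC, 46.32 and 43.83 in the deletion with DMSO, 59.21 and 47.96 in wild type with aTC, and 53.51 and 54.39 in wild type with DMSO. All deletion libraries lay below all wild-type libraries, and it fell 1.39-fold with aTC (-0.47 ± 0.088, adjusted p = 0.0152).

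FAF1 (YIL019W, chromosome 9, 299456 to 300496, plus strand), a factor needed for the early cuts, had 40.44 and 46.37 CPM in the deletion with aTC, 60.77 and 62.67 in the deletion with DMSO, 79.66 and 53.99 in wild type with aTC, and 69.24 and 66.73 in wild type with DMSO. Replicate 2 of wild type with aTC was the lowest library outside the deletion with aTC. FAF1 fell 1.54-fold with aTC (-0.62 ± 0.14, adjusted p = 0.0209). UTP14, the activator of Dhr1, fell 1.52-fold (-0.61 ± 0.13, adjusted p = 0.0198). The others called with aTC were UTP23, ENP2, KRR1 and FCF2, with falls of 1.27-fold (ENP2) to 1.44-fold (FCF2). KRE33, the acetyltransferase of 18S rRNA, UTP20, SOF1, FCF1, the nuclease of the early cuts, and NSR1, the nucleolin homologue, were not called with aTC. NSR1 was called on average (-0.21 ± 0.062, adjusted p = 0.0381), and 48.6% of its counted exon is shared with another listed gene.

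Of the 8 late 40S factors, which act on the particle as it leaves the nucleolus, 5 fell with aTC and 6 on average. NOB1 (YOR056C, chromosome 15, 411321 to 412700, minus strand), the nuclease that makes the last cut of 18S rRNA, had 99.84 and 109.3 CPM in the deletion with aTC, 140.2 and 135.4 in the deletion with DMSO, 164.2 and 130.9 in wild type with aTC, and 155.8 and 145.9 in wild type with DMSO. Every other library was above the deletion with aTC. NOB1 fell 1.41-fold with aTC (-0.50 ± 0.093, adjusted p = 0.0152). Its partner PNO1, of which 36.2% of the counted exon is shared with another listed gene, was called only on average (-0.18 ± 0.051, adjusted p = 0.0312).

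RIO1 (YOR119C, chromosome 15, 530578 to 532032, minus strand), an atypical kinase of the last steps, had 82.22 and 83.61 CPM in the deletion with aTC, 94.15 and 96.18 in the deletion with DMSO, 114.7 and 96.09 in wild type with aTC, and 114.2 and 104.1 in wild type with DMSO. Its lowest libraries were those of the deletion with aTC, and replicate 2 of wild type with aTC lay within the range of the deletion with DMSO. RIO1 fell 1.27-fold with aTC (-0.35 ± 0.079, adjusted p = 0.0224), while the related kinase RIO2 was at -0.10 ± 0.063 (adjusted p = 0.282). The export factor LTV1 fell 1.42-fold, TSR1, a GTPase-like protein, 1.26-fold, and ENP1 1.22-fold (adjusted p = 0.0207, 0.0338 and 0.028). DIM1, the dimethylase of 18S rRNA, was not called.

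**Figure D3:**
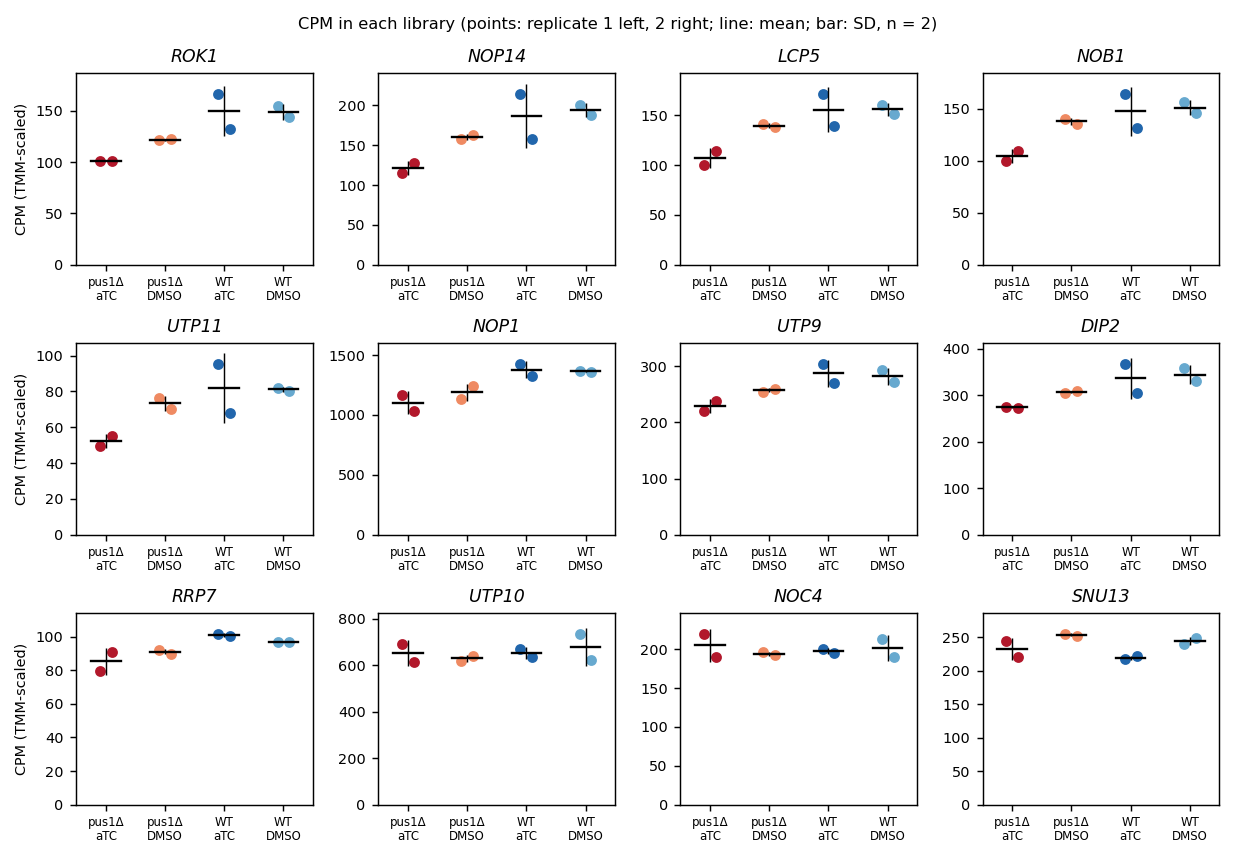
CPM (vertical axis, linear and from 0) in each library for 12 genes, by group (horizontal axis); points are libraries, lines the mean and bars the SD (n = 2). ROK1, NOP14, LCP5, NOB1 and UTP11 are lowest in the deletion with aTC, while UTP10, NOC4 and SNU13 overlap between the deletion and wild type with aTC.

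In the plot of CPM by library the spread of wild type with aTC is wider than that of the other groups for ROK1, NOP14, LCP5, NOB1, UTP11 and DIP2, and narrow for NOC4, SNU13, UTP10 and RRP7. The levels of the deletion with aTC are close between replicates for ROK1 and DIP2.

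The deletion with aTC, which switches on altPus1, was tested against DMSO in the same strain. Every strain carried the construct, so effects of aTC itself and of altPus1 cannot be told apart. No gene of the 59 was called by edgeR, where 0.152% of all tested genes were called lower and 0.354% higher. At an unadjusted p under 0.05, 25 of the 59 were lower and 0 higher, against 12.1% lower and 10.5% higher over all tested genes, and DESeq2 called 11 lower against 4.53% of its tested genes. The median log2 fold change was -0.15 against 0.004 over all tested genes, and 49 of 59 were below 0, as were 48.9% of all tested genes. In 42 of 59 both aTC libraries lay below both DMSO libraries, against 28.7% of all tested genes. The smallest p-values belonged to NOB1 (-0.40 ± 0.093, edgeR adjusted p = 0.0699), LCP5 (-0.38 ± 0.092, adjusted p = 0.0731) and UTP11 (-0.49 ± 0.13, adjusted p = 0.0797). The largest log2 fold change downward was that of FAF1 (-0.51 ± 0.14, adjusted p = 0.09), and the highest value was that of UTP22 at 0.10. A fit on the deletion's 4 libraries alone called 28 of the 59 lower, with 7.99% of all tested genes called lower. The fits without replicate 1 or replicate 2 of wild type with aTC each called 23, with 5.87% and 5.89%.

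In wild type, aTC against DMSO gave 0 called genes, where edgeR called 0.118% of all tested genes lower and 0.253% higher. DESeq2 also called 0, where it called 0.417% lower and 0.369% higher. Of the 59, 1 gene was lower at an unadjusted p under 0.05, against 2.92% of all tested genes: SNU13 (-0.16 ± 0.059, edgeR adjusted p = 0.807). The median log2 fold change was -0.009. It was -0.13 without replicate 1 of wild type with aTC and 0.09 without replicate 2, so its sign rests on which replicate is used.

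The deletion against wild type with DMSO compares loss of PUS1 without induction. No gene of the 59 was called by edgeR, where 0.0843% of all tested genes were called lower and 0.135% higher. DESeq2 called 0, where it called 1.01% lower and 0.834% higher. At an unadjusted p under 0.05, 12 were lower and 0 higher, against 7.67% lower and 8.85% higher over all tested genes. The median was -0.14, and 57 of 59 were below 0, as were 49.6% of all tested genes. In 43 of 59 both deletion libraries lay below both wild-type libraries, against 29.4% of all tested genes. ROK1 had the smallest p (-0.29 ± 0.090, adjusted p = 0.174), followed by NOP56 (-0.20 ± 0.064, adjusted p = 0.185) and UTP30 (-0.26 ± 0.088, adjusted p = 0.198). The fits without replicate 1 or replicate 2 of wild type with aTC each called 3 genes, with 0.906% and 0.839% of all tested genes called lower. The fit on the 4 DMSO libraries called 5, with 2.54%.

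Whether the response to aTC differed between the strains was tested as an interaction. No gene of the 59 passed in edgeR, which called 0% of all tested genes lower and 0.0169% higher, or in DESeq2, which called 0% and 0.016%. Of the 59, 9 had an unadjusted p under 0.05 with a lower value in the deletion, where 5.18% of all tested genes did. LCP5 (-0.38 ± 0.13, adjusted p = 0.66), UTP11 (-0.50 ± 0.18, adjusted p = 0.66) and NOB1 (-0.37 ± 0.13, adjusted p = 0.66) had the smallest p-values. The median was -0.15. It was -0.03 with 0 called without replicate 1 of wild type with aTC, and -0.26 with 18 called lower without replicate 2, where 2.69% of all tested genes were. The averaged response to aTC also had 0 called, against 0.539% of all tested genes lower and 0.775% higher, with 15 lower at an unadjusted p under 0.05 against 9.15%. DESeq2 called 2 lower (2.08% of its tested genes), and edgeR called 26 without replicate 1 of wild type with aTC (5.55% of all tested genes) and 0 without replicate 2 (0.571%). The comparisons share libraries with each other, so their values stand side by side and do not support each other.

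Most of the 59 genes also had coding sequences richer in adenine than the median tested gene. Adenine made up a median of 35.11% of their coding sequence in R64, from 24.39% in NOP1 to 40.11% in UTP11, against 32.71% over the tested genes with a coding sequence there, and 47 of 59 lay above that median. For each of 4 genes the stretch of 90 coding bases richest in adenine is shown, with adenines in capitals, because they set genes of high and low adenine content and of large and small response side by side.
UTP11 (R64 chrXI:255882-255971, minus strand): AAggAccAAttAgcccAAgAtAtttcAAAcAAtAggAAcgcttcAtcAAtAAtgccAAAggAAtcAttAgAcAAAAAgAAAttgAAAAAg
NOP14 (R64 chrIV:190449-190538, minus strand): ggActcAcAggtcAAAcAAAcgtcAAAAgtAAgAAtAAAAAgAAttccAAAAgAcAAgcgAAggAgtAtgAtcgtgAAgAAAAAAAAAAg
NOC4 (R64 chrXVI:821274-821363, minus strand): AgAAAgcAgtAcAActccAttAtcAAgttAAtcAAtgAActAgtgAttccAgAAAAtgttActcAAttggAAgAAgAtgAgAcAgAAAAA
NOP1 (R64 chrIV:427967-428056, plus strand): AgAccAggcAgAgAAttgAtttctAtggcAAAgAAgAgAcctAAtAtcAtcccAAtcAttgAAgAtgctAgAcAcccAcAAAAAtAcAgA

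These stretches hold 44 adenines in UTP11, 48 in NOP14, 41 in NOC4 and 38 in NOP1. UTP11 and NOP14, with 40.11% and 38.51% adenine over the whole coding sequence, had the falls of 1.56-fold and 1.53-fold given above. NOC4, with 31.77%, was not called. NOP1, with the lowest adenine content of all 59, fell nonetheless, by 1.25-fold.

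Across the 59 genes, the log2 fold change of the deletion against wild type with aTC ran against adenine content (Spearman correlation -0.78 across genes, which are not independent replicates, and which share libraries and roles). Across 5532 other genes the same correlation was -0.33. Without replicate 1 or 2 of wild type with aTC it was -0.67 or -0.79 over the 59 genes and -0.22 or -0.38 over the others. In the 20 genes lowest in adenine (24.39% to 33.45%) the median log2 fold change was -0.11 and 2 were called. In the next 19 (33.66% to 35.95%) it was -0.33 with 12 called, and in the 20 highest (35.97% to 40.11%) it was -0.50 with 17 called. Other genes in the same ranges had medians of 0.05, -0.02 and -0.15, with 2.47%, 9.78% and 23.4% called lower. In each range the 59 genes had the lower median.

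The same relation appeared between replicates of 1 group, where no treatment or genotype differs. For replicate 1 minus replicate 2 the correlation with adenine content over the 59 genes was 0.78 in wild type with aTC, -0.77 in the deletion with aTC, -0.58 in wild type with DMSO and 0.23 in the deletion with DMSO. Over other genes it was 0.41, -0.51, -0.14 and 0.02. Its size was thus as large between replicates with aTC as between the groups. Adenine was not the only property that these differences followed. In the same order of groups, the correlation over the 59 genes was -0.47, 0.55, 0.66 and -0.62 with mean log2 CPM. With counted length it was 0.02, 0.22, 0.61 and -0.63. For the deletion against wild type with aTC the values were 0.55 with mean log2 CPM and 0.17 with length.

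**Figure D4:**
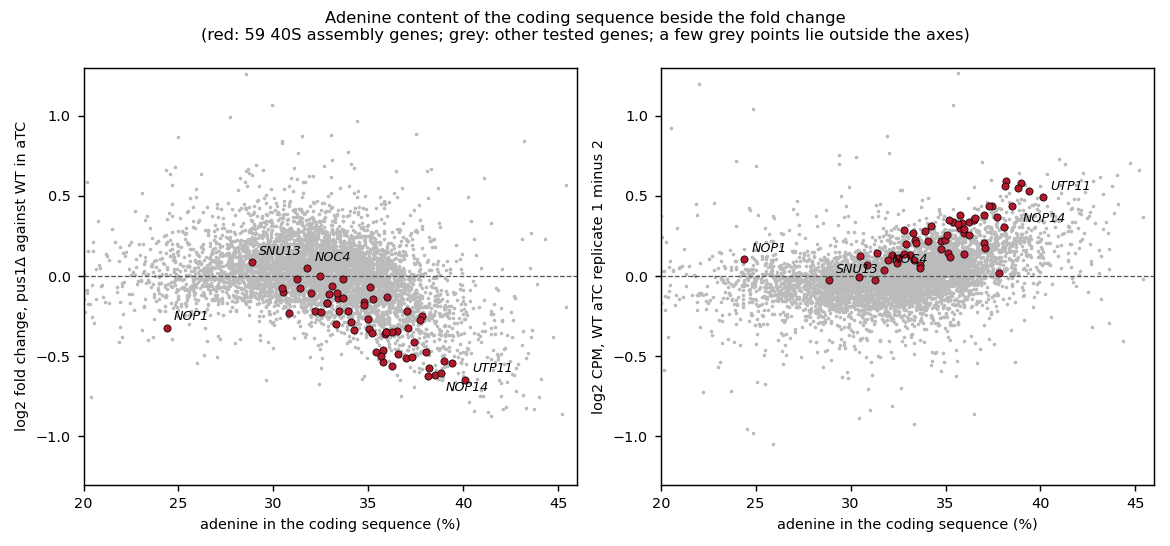
Adenine in the coding sequence (percent, horizontal axes) beside the log2 fold change of the deletion against wild type with aTC (left) and the log2 difference of replicate 1 and replicate 2 of wild type with aTC (right); red points are the 59 genes and grey points other tested genes. The red points slope down on the left (Spearman -0.78) and up on the right (0.78), with NOP1 apart from the slope on the left.

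An added fit removed from each library, before testing, a smooth trend on adenine content over all tested genes with a coding sequence. With it 31 of the 59 genes were called lower with aTC, 26 of them among the original 31, where 9.07% of all tested genes were called lower, and the median was -0.25. BFR2, RRP7, ENP2, KRR1 and FCF2 were no longer called, at log2 fold changes of -0.26, -0.065, -0.229, -0.245 and -0.267. UTP5, UTP18, DBP8, NSR1 and PNO1 were newly called. Averaged over treatments 39 were called, 35 of them among the original 38, with a median of -0.20, where 15% of all tested genes were called lower. With aTC the adenine fit called 0 of the 59 without replicate 1 of wild type with aTC (median -0.13, 0.285% of all tested genes) and 43 without replicate 2 (median -0.34, 13.4%). The Mpp10 and Sas10 group moved from a median of -0.50 to -0.32 with 5 of 6 called, and UTP-A stayed at -0.13 with 2 of 7 called. UTP11 went from -0.65 to -0.33 ± 0.080 (adjusted p = 0.0252), and NOP14 from -0.62 to -0.38 ± 0.079 (adjusted p = 0.0172), both by over 1.5 times. SAS10, UTP14, UTP30, UTP9 and FAF1 also moved by over 1.5 times, to -0.35, -0.35, -0.27, -0.18 and -0.41, and were still called, UTP9 at an adjusted p of 0.05 as rounded. ROK1 went from -0.56 to -0.46 ± 0.076 (adjusted p = 0.0132) and NOP1 from -0.32 to -0.34 ± 0.068 (adjusted p = 0.0169). After the adenine fit, log2 fold change over the 59 genes still ran against adenine content. The Spearman correlation was -0.4 with aTC (-0.78 before) and -0.36 averaged over treatments (-0.76 before). The part of base composition in the remaining falls was not tested.

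**Figure D5:**
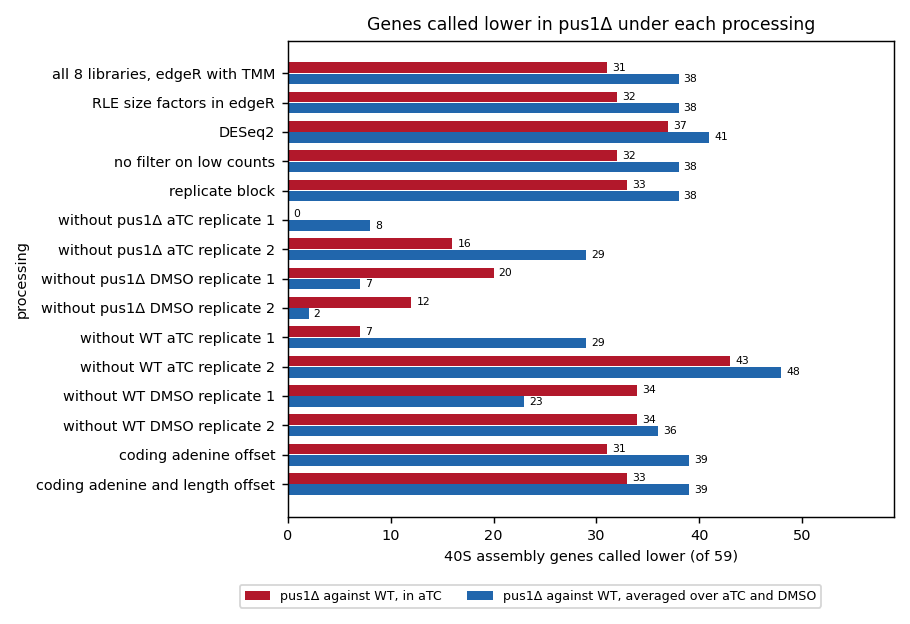
Number of the 59 genes called lower in the deletion (horizontal axis) under each processing (vertical axis), with aTC (red) and averaged over aTC and DMSO (blue). The fit on the compared groups alone is not drawn. With aTC the number runs from 0 without replicate 1 of the deletion with aTC to 43 without replicate 2 of wild type with aTC, and it is 31 with all 8 libraries.

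The bars of genes called by processing show the counts holding between 31 and 41 under other scalings, filters, the replicate number as a block, DESeq2 and the adenine fits. They move most where a single library is left out. The fit on the compared groups alone, which is not drawn, called 24 with aTC, where 4.73% of all tested genes were called lower.

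Other genes of the pathway were compared with aTC as well. Of 30 other 40S assembly genes, 17 fell and 0 rose in the deletion against wild type, with a median of -0.34, beside the 8.13% and 5.5% of all tested genes called lower and higher. Without replicate 1 of wild type with aTC their median was -0.17, and without replicate 2 it was -0.50. Fewer were called lower without replicate 1 and more without replicate 2, as over all tested genes. PXR1, a G-patch protein that activates a helicase, had a log2 fold change of -0.84 ± 0.11 (adjusted p = 0.0123), and KRI1, a binding partner of Krr1, was at -0.75 ± 0.13 (adjusted p = 0.0152). PXR1 was also the only one of the 30 called for aTC against DMSO in the deletion (-0.61 ± 0.11, adjusted p = 0.0446). BUD23, the 18S rRNA guanine methylase, fell (-0.50 ± 0.091, adjusted p = 0.0152). The casein kinase 2 subunits CKA1, CKA2, CKB1 and CKB2, which have many roles outside the pathway, were not called, with values from -0.17 (CKA1) to 0.06 (CKB2). On average over treatments 20 of the 30 fell, beside 11.2% of all tested genes.

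Of 55 genes for assembly of the 60S subunit, 33 fell and 1 rose with aTC, beside 8.13% and 5.5% of all tested genes. Their median was -0.36, and it was -0.20 or -0.47 without replicate 1 or 2 of wild type with aTC. Fewer were called lower without replicate 1 and more without replicate 2, as over all tested genes. Of 56 genes of 40S ribosomal proteins, the products that the processome assembles, 2 fell and 0 rose with aTC, a share below the 8.13% of all tested genes. Their median was -0.11, and 52 of 56 were below 0, as were 49% of all tested genes. Averaged over treatments edgeR called 7 lower, beside 11.2% of all tested genes. DESeq2 called 14 lower, beside 15.1% of its tested genes. Without replicate 1 or 2 of wild type with aTC, the median with aTC was -0.09 or -0.13. The ribosomal protein genes come largely in near-identical pairs whose unique reads are uncertain. General stress genes moved the other way. Of 16, 10 rose and 0 fell with aTC, with a median of 0.30, where 5.5% of all tested genes rose. Without replicate 1 or 2 of wild type with aTC, their median was 0.30 or 0.36. Fewer were called higher without replicate 1, as over all tested genes. On average over treatments 11 rose, where 10% of all tested genes did. Their summed level with aTC was 550.6 to 590.5 CPM in the deletion and 439 to 445 in wild type. With DMSO it was 508 to 524.8 in the deletion and 420.9 to 438.1 in wild type. The same order of strains held for the haploid-specific genes, at 70.87 to 74.03 and 71.1 to 73.31 CPM in the deletion and 63.89 to 66.07 and 62.68 to 66.61 CPM in wild type, with 0 of 14 at 0 in any group. The part of these differences in the fall of the 40S assembly genes was not tested.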

How the data were processed

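The values analysed are raw counts per gene in 8 polyA-selected libraries, 2 per group. Per the labels, the kit was directional and sequencing used a NovaSeq X. Per the submitters' processing notes reads were aligned with STAR (version not given). The deposited counts were made by the authors with featureCounts 2.0.1, per the file headers, over exons from uniquely aligned reads with no strand option, so reads of overlapping genes are uncertain. The 6 genes that share over 10% of their counted exon with another listed gene are NOP56, NOP58, RRP9, SAS10, NSR1 and PNO1. The genome build is not named there.

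The members and lists were chosen with earlier results of these data known. Symbols came from the RefSeq table of assembly R64 (5931 of 6663 identifiers, all 59 members). Sequences were read from R64 by gene identifier, from R64's own annotation.

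The test was the quasi-likelihood F test of edgeR 4.0.16 (R 4.3.3), fitted to all 8 libraries together with TMM scaling, 1 mean per group and 4 residual degrees of freedom. After the default expression filter 5932 genes remained (731 left out), over which p-values were adjusted by Benjamini-Hochberg. Called means an adjusted p under 0.05. SE is the standard error of a log2 fold change. The biological coefficient of variation was 5.44%. There were 7 comparisons. DESeq2 1.42.0, other scaling, no filter, a replicate block, the compared groups alone and 8 fits that each leave out 1 library were alternatives. Offsets on coding adenine (a loess curve per library, span 0.5) and on adenine and length were added after seeing the data, the former also without each replicate of wild type with aTC. The test was checked on simulated counts. The labels call replicates biological but do not say how cultures were separated, so p-values measure the spread between these samples.

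Every library's value was given for the 12 called genes of smallest p, the gene of smallest p in each role group, the highest and lowest level per kilobase and the extremes of each pairwise comparison. UTP10 and NOC4 were added after their values were seen. Replicates differed by more than counting noise in every group (chi-square per degree of freedom 8.269 to 33.48).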

Additional observations from a re-analysis of the deposited data

How the results depend on the processing

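For the genes picked by the rule above, mostly for small p or extreme values, 68 results had an unadjusted edgeR p under 0.05. Under the alternatives, 837 of their values kept their direction and side of the threshold, 77 lost the call, 74 gained one and 0 changed sign. The other genes of the 59 are not in this tally. Values near 0 outside these 68 did change sign with the adenine offset, as in the deletion against wild type with aTC for NOC4 (0.05 to -0.008) and UTP10 (0.002 to -0.04). The share of all tested genes called lower in each setting is given in brackets. The deletion was lower than wild type with aTC for 32 genes with RLE scaling (8.85%) and 37 with DESeq2 (11.9%). It was lower for 32 with no filter (8.37%) and 24 with the compared groups alone (4.73%). For aTC against DMSO in the deletion, 11 genes were called by DESeq2 (4.53%) and 28 with the compared groups alone (7.99%). The adenine and length offset called 2 there (1.03%). For the deletion against wild type with DMSO, 5 were called with the compared groups alone (2.54%). For the averaged response to aTC, DESeq2 called 2 (2.08%) and each of the adenine offsets 1 (1.3% and 1.62%). The cause was not tested.

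Leaving out 1 library at a time gave 0 to 43 genes called for the deletion against wild type with aTC (medians -0.369 to -0.163) and 2 to 48 averaged over treatments. It gave 0 to 23 for aTC against DMSO in the deletion, 0 to 3 for the deletion against wild type with DMSO, 0 to 18 for the interaction (medians -0.257 to -0.027) and 0 to 26 for the averaged response to aTC. In wild type the median response to aTC ran from -0.133 to 0.092. The share of all tested genes called lower, given above, was also highest where each of these counts was largest. The lone library left in a group was assumed to vary like the others.

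Over all tested genes, samples with the same replicate number did not clearly deviate together (correlations -0.156 to 0.143). With a single replicate difference per group, these correlations cannot decide whether cultures were handled in pairs, and the labels do not say. With the replicate number as a block, 33 genes were called with aTC, where 7.79% of all tested genes were called lower. Averaged over treatments 38 were called, where 10.8% of all tested genes were called lower, and 0 in the other comparisons. With 2 libraries a group and 4 residual degrees of freedom, a p that misses the threshold does not show that levels were alike.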
